A study of Homo sapiens and Mus musculus with 213 samples.

Results

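The amino-acid stress response and the charging of transfer RNA were followed through 43 genes, 24 of them linked to the transcription factor ATF4 and 19 encoding cytosolic aminoacyl-tRNA synthetases. They were chosen by name with earlier results of these data known, so counts set beside the share of all genes are a description only. Each was found once among the 58336 genes listed in the RNA-seq tables. All 43 had a mean of at least 10 normalised reads and were tested. RNA-seq of polyadenylated RNA was available for 3 HEK293T lines, a cell line derived from human embryonic kidney, with 3 libraries per line. MYC WT was the unedited line. In MYC MUT the guanine runs of the G-quadruplex (G4) motif upstream of the MYC P1 promoter had been mutated by CRISPR editing so that the structure cannot fold. In SWP the same motif had been exchanged for the G4 motif of another gene. The edited lines were grown from single sorted cells, and which clones gave the RNA libraries is not given in the sources used here, so an edit and the history of a clone cannot be told apart. The libraries held 65024354 to 98497026 reads on genes. All lines were grown in glutamine-supplemented medium with serum, with no withdrawal of amino acids, and the p-values below measure only the spread between these libraries.

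ATF4 is the transcription factor through which cells answer a shortage of amino acids. When a kinase such as GCN2 senses uncharged transfer RNA it phosphorylates the initiation factor eIF2, general translation falls and ATF4 messenger RNA is translated more efficiently. ATF4 then activates genes for amino acid uptake and synthesis, for redox balance and for the aminoacyl-tRNA synthetases, the enzymes that join each amino acid to its transfer RNA. It binds as a dimer with a C/EBP partner such as CEBPG at a composite site that is often written TGATGCAA.

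The composite site is shown for members that carry it close to the start of transcription, because it occurs in some genes of both lists. RefSeq promoter windows on GRCh38.p14, reaching from 250 bases before to 50 bases after a start, held 37 of the 43 genes. NUPR1, GPT2, SLC7A11, LARS1, VARS1 and YARS1 had no window. The letters TGATGNAA on either strand were found in 14 of these 37 genes (37.8%), 7 of 21 ATF4-linked genes and 7 of 16 synthetases, against 4.46% of the 27305 genes with a window. All 14 sites matched the hg38 sequence. The 11 printed here are those of CHAC1 and ASNS and 9 of the 10 within 50 bases of the start, that of NARS1 being named only, read on the strand that spells TGATGNAA, 5′ to 3′, with the site in capitals.

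CEBPG: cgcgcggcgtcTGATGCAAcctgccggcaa
JDP2: atagccggggcTGATGCAAcccgtcccgcc
CHAC1: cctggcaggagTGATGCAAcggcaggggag
ASNS: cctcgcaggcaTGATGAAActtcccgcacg
SLC3A2: ggagcTGATGTAAggagtcctgca
SLC7A1: gggcgcactgcTGATGAAAcctggcgccgg
CARS1: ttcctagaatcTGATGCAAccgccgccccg
IARS1: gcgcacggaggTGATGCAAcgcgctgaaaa
MARS1: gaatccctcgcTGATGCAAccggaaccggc
GARS1: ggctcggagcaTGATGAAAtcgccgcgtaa
TARS1: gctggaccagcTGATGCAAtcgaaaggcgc

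The centre of the site read TGATGCAA in 9 of the 14 genes and TGATGAAA in 3. The stretch shown for CEBPG lies at chr19:33374060-33374089, that for CHAC1 at chr15:40953251-40953280, that for ASNS at chr7:97872458-97872487 and that for GARS1 at chr7:30594834-30594863. In GENCODE release 44 the sites of CHAC1, ASNS and GARS1 fall in untranslated exon sequence of annotated transcripts, whereas that of CEBPG lies inside the gene but in no exon. The site of SLC3A2, 38 bases after a RefSeq start inside the annotated gene, falls in coding sequence. Its stretch is cut to 24 bases by the edge of the window. The sites of CARS1, IARS1, MARS1, NARS1 and TARS1 begin within 15 bases of their RefSeq starts. Across the 14 genes the site was on the gene's own strand in 6 and on the other strand in 8. A match describes the sequence only, and binding of ATF4 was not measured in these libraries.

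The libraries of 1 line did not repeat each other closely for these genes. In each of the 3 lines the library numbered 1 held the lowest value for 33 of the 43 genes, against 17% of all genes tested, and this included 21 of the 24 ATF4-linked genes and 12 of the 19 synthetases. CHAC1, which encodes a glutathione-degrading enzyme, showed the widest spread, with normalised counts of 649.9, 4072 and 4847 in MYC WT, 389, 864 and 1174 in MYC MUT and 351, 2127 and 2812 in SWP. The median ATF4-linked gene was 2.09-fold higher in libraries 2 and 3 than in library 1 of MYC WT, 1.29-fold in MYC MUT and 1.58-fold in SWP, while the median over all genes tested was 1.01-fold in MYC WT. ATF5, RARS1, FARSB, HARS1 and KARS1 ran the other way and were highest in library 1 of every line, a pattern shown by 16.9% of all genes tested. Library 1 of MYC WT and of SWP also stood apart from the other 2 libraries of its line over the whole transcriptome. What differed between the library numbers is not given in the sources used here, and the genes whose calls differ with library 1 of every line left out are named with the comparisons.

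**Figure D1:**
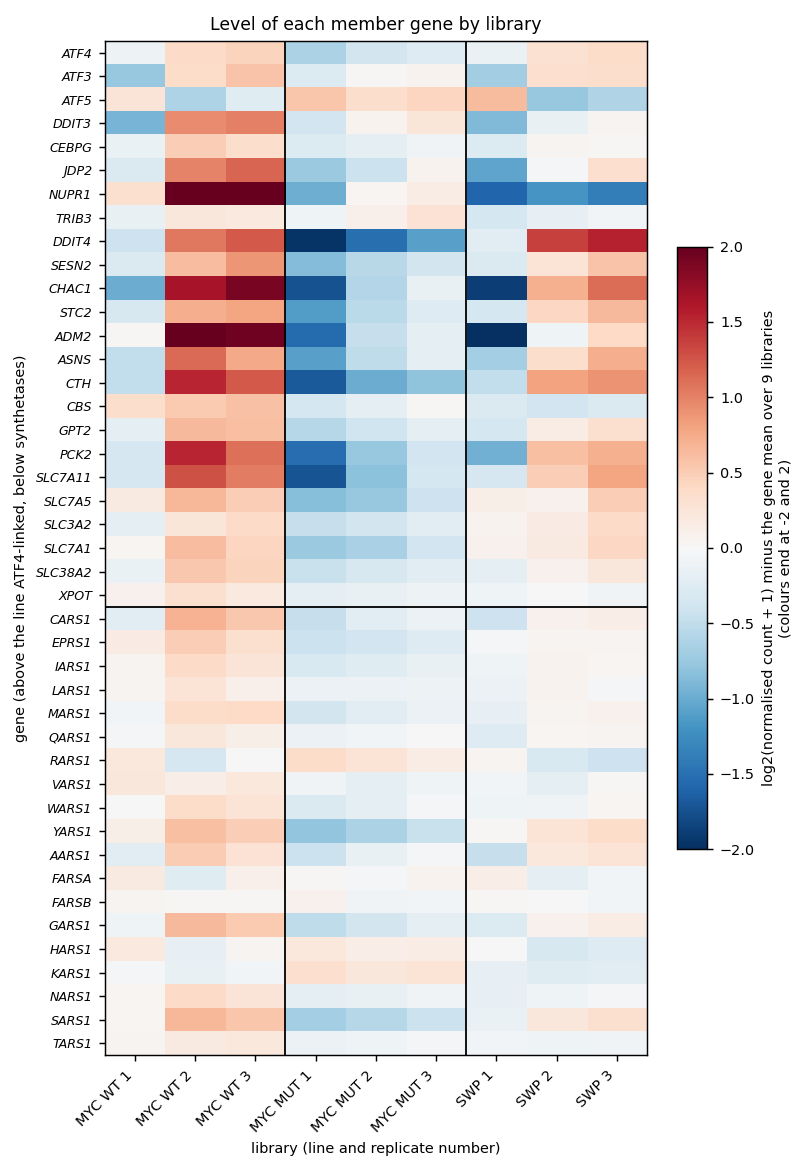
Level of each of the 43 genes (rows) in each of the 9 libraries (columns), as log2(normalised count + 1) minus the gene's mean over the libraries; red is above and blue below that mean. Most ATF4-linked genes are blue in MYC MUT and in the first library of each line and red in libraries 2 and 3 of MYC WT, whereas ATF5, RARS1 and KARS1 show other patterns.

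Mutation of the MYC G4 was accompanied by lower messenger RNA for much of the ATF4 programme. A gene was called where limma's adjusted p was below 0.05 and the log2 fold change was beyond 0.5 in either direction. Against MYC WT, 19 of the 43 genes were called lower in MYC MUT and 0 were called higher, where 10.1% of the 20884 genes tested were called lower and 11.3% higher. At an unadjusted p below 0.05 limma found 1 gene higher, and edgeR and DESeq2 also called 0 higher. The called genes were 14 of 24 ATF4-linked genes and 5 of 19 synthetases. The median log2 fold change was -0.97 for the ATF4-linked genes and -0.36 for the synthetases, beside -0.003 over all genes tested. The lines did not overlap, with MYC MUT the lower, in 26 of the 43 genes, against 26.4% of all genes tested, and in ATF5 and KARS1 MYC MUT was the higher without overlap, against 25.9%. With 3 libraries against 3 an exact two-sided permutation test cannot give a p below 0.10, the value that these 28 genes reached.

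Set against SWP, the line with a substituted G4, MYC MUT again had lower levels in part of the 43 genes, 8 of 24 ATF4-linked genes and 2 of 19 synthetases being called lower. Here 10 of the 43 genes were called lower and 0 higher, where 8.31% of all genes tested were called lower and 12.3% higher. At an unadjusted p below 0.05 limma found 5 higher, edgeR called 0 higher and DESeq2 called 1, NUPR1. ATF4, DDIT4, SESN2, CTH, SLC7A11, SLC7A5, SLC7A1, YARS1 and SARS1 were called lower in MYC MUT against both other lines, and SLC3A2 against SWP alone. The 2 comparisons share the MYC MUT libraries and so are not independent. Same-numbered libraries of MYC MUT and SWP deviated together, and with the replicate number as a block 14 genes were called lower (background 9.29%) and 2 were called higher (background 13.6%). STC2, CHAC1, ASNS and PCK2 then joined the lower genes, and NUPR1 and ATF5 were the higher ones. The median log2 fold change was -0.49 for the ATF4-linked genes and -0.08 for the synthetases, beside 0.04 over all genes tested. Among the 8 transcription regulators of the ATF4-linked list the median was 0.12, with 4 below 0 and 4 above.

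Between SWP and MYC WT 2 of the 43 genes were called, NUPR1 and CBS, both lower in SWP, where 2.98% of all genes tested were called lower and 2.15% higher. With the replicate block 7 genes were called lower (background 4.18%), the added ones being DDIT3, JDP2, CHAC1, ADM2 and PCK2. Same-numbered libraries of these lines correlated in their deviations at 0.102 to 0.555. Differently numbered ones reached 0.263, so the pairing of these lines is uncertain. The median log2 fold change was -0.30 for the ATF4-linked genes and -0.21 for the synthetases, beside -0.06 over all genes tested. All 19 synthetases had a negative log2 fold change in SWP against MYC WT, between -0.41 for CARS1 and -0.04 for FARSA, and limma, edgeR and DESeq2 called 0 of them, with 7 lower at an unadjusted p below 0.05 in limma.

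**Figure D2:**
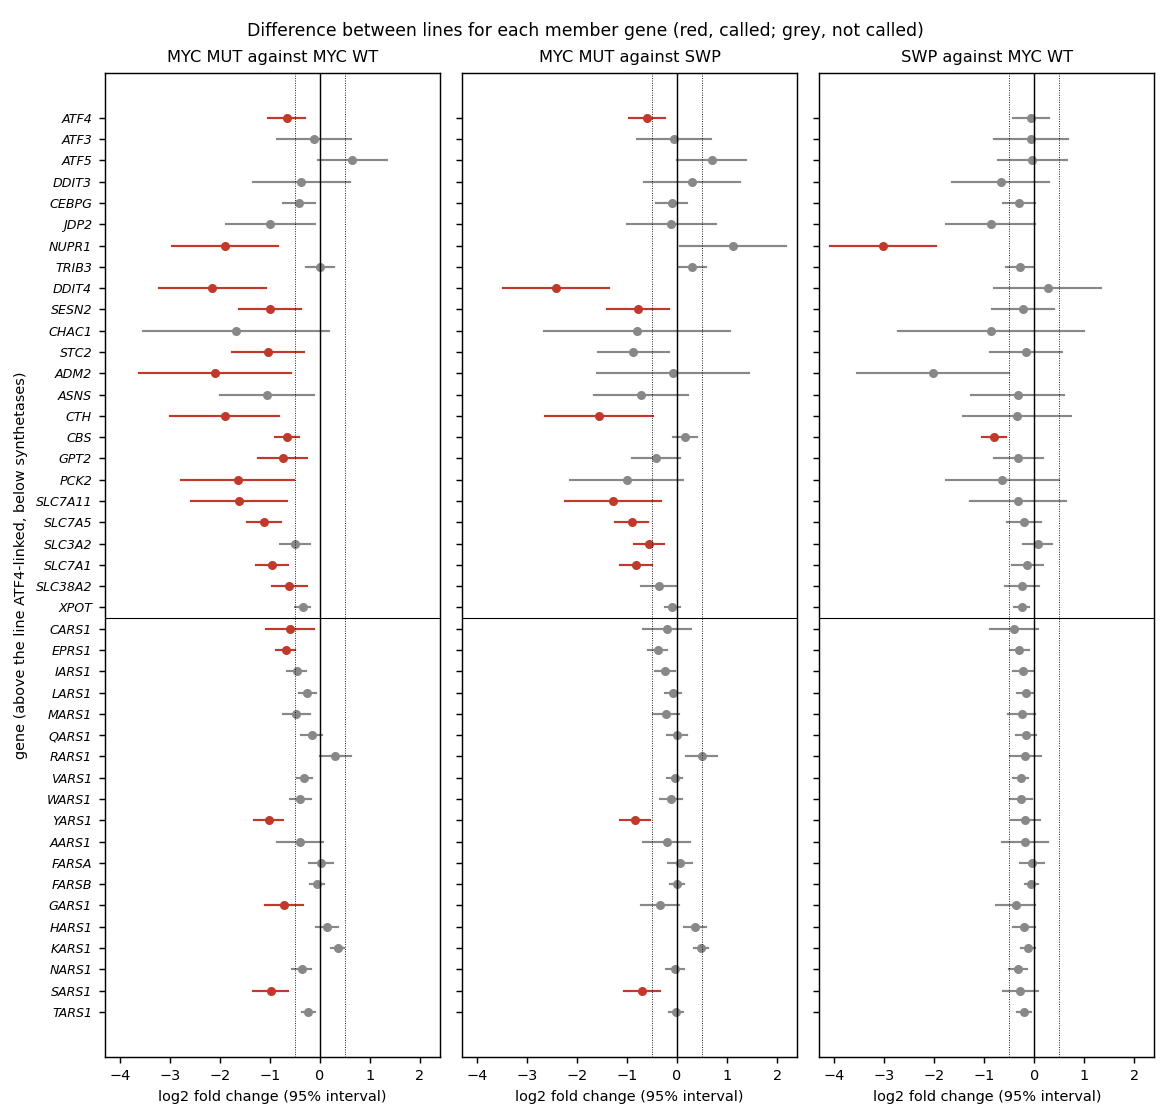
Log2 fold change (x axis) with its 95% interval from limma for each of the 43 genes (rows) in the 3 comparisons; red marks called genes, grey the others, and dotted lines mark a log2 fold change of 0.5. The 19 called genes of MYC MUT against MYC WT and the 10 of MYC MUT against SWP lie left of 0, whereas SWP against MYC WT has 2.

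The headers of the 3 MYC WT tables carry an extra identifier that those of MYC MUT and SWP lack. What it stands for is not given in the sources used here, and whatever it marks cannot be told apart from an edit in the comparisons against MYC WT. Without library 1 of all 3 lines, a setting chosen after the values were seen, 27 genes were called lower in MYC MUT against MYC WT (background 11.9%) and ATF5 was called higher (background 12.4% higher). The 9 added genes were ASNS, ATF5, CEBPG, CHAC1, DDIT3, IARS1, JDP2, MARS1 and SLC3A2. In MYC MUT against SWP 15 were then called lower (background 9.76%) and 3 higher (background 13.1%), with ASNS, CHAC1, GPT2, PCK2 and STC2 added as lower and ATF5, NUPR1 and RARS1 as higher. In SWP against MYC WT 10 were called lower (background 3.51%), with ADM2, CARS1, CHAC1, CTH, DDIT3, JDP2, PCK2 and SLC7A11 added. No call was lost in the 3 comparisons by this setting.

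The regulators of the programme were led by ATF4 itself, at chr22:39519695-39522683 on hg38. Its normalised counts were 47284, 66471 and 69677 in MYC WT, 32758, 39481 and 42782 in MYC MUT and 46471, 62765 and 65726 in SWP. All 3 MYC MUT libraries lay below all 6 others, and MYC WT and SWP overlapped. ATF4 was lower in MYC MUT than in MYC WT (log2 fold change -0.66, SE 0.17, adjusted p = 0.009 from limma), at 62.7% of the MYC WT mean, and lower than in SWP (log2 fold change -0.60, SE 0.17, adjusted p = 0.0152). SWP against MYC WT gave a log2 fold change of -0.06 with a 95% interval of -0.43 to 0.30. Leaving out SWP library 2, SWP library 3 or MYC MUT library 1 ended the call against SWP, with an adjusted p of up to 0.0678. Because ATF4 is regulated mainly in translation, its messenger RNA does not report the amount of protein, which was not measured here.

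NUPR1, a small stress-induced chromatin protein, was the least abundant member and behaved differently. Its normalised counts were 62.5, 259 and 239.7 in MYC WT, 25, 51.5 and 55.5 in MYC MUT and 16, 21.5 and 18.5 in SWP. The highest values were in MYC WT libraries 2 and 3, and every library of both edited lines lay below every MYC WT library. It was called lower in MYC MUT (log2 fold change -1.90, SE 0.48, adjusted p = 0.00949) and in SWP (log2 fold change -3.02, SE 0.48, adjusted p = 0.00247), and SWP was the lower of the edited lines, with every SWP library below every MYC MUT library (log2 fold change 1.12, SE 0.48, adjusted p = 0.0884, and 0.00666 with the replicate block).

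DDIT3, the pro-apoptotic factor CHOP, had normalised counts of 251, 925 and 966 in MYC WT, 366, 499.7 and 564 in MYC MUT and 259, 430.1 and 498 in SWP. MYC WT library 1 lay below every library of the edited lines, and MYC WT libraries 2 and 3 above all of them. Its log2 fold change in MYC MUT against MYC WT was -0.37 with a 95% interval of -1.34 to 0.60, and in SWP it was -0.67 (adjusted p = 0.403, and 0.0481 with the replicate block). DDIT3 was called lower without library 1 of every line, both in MYC MUT (log2 fold change -0.83, adjusted p = 0.00013) and in SWP (log2 fold change -1.03, adjusted p = 0.000132). DDIT3 shares 982 bases with MARS1 on the opposite strand, and MARS1 was far more abundant. Whether the reads were counted by strand is not given in the sources used here, so DDIT3 values are uncertain. Among all members 13 overlap an opposite-strand gene with a mean of at least 10 normalised reads.

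The other regulators were not called in the 3 comparisons with all libraries and no block. The bZIP factors ATF3, CEBPG and JDP2 had log2 fold changes of -0.12, -0.42 and -0.99 in MYC MUT against MYC WT, with adjusted p of 0.804, 0.0407 and 0.0743. CEBPG, the dimer partner of ATF4, passed the p threshold but not the size threshold. Without library 1 of every line CEBPG (log2 fold change -0.56, adjusted p = 0.00019) and JDP2 (log2 fold change -1.26, adjusted p = 9.79e-05) were called lower in MYC MUT against MYC WT. JDP2 was also called lower in SWP against MYC WT, with the replicate block (log2 fold change -0.87, adjusted p = 0.00138) and without library 1 (log2 fold change -0.92, adjusted p = 0.00334). TRIB3, a pseudokinase that feeds back on ATF4, had a log2 fold change of 0.01 with a 95% interval of -0.27 to 0.28. ATF5, another bZIP factor of the same family, had normalised counts of 1108, 606 and 784 in MYC WT, 1371, 1188 and 1247 in MYC MUT and 1444, 550.5 and 610.0 in SWP. Every MYC MUT library lay above every MYC WT library, at a log2 fold change of 0.65 and an adjusted p of 0.126, and the SWP libraries spread across both. Against SWP the adjusted p of ATF5 was 0.107, and 0.00673 with the replicate block. Its log2 fold change without library 1 of every line was 0.82 against MYC WT (adjusted p = 0.000296) and 1.07 against SWP (adjusted p = 4.76e-05). ATF5 overlaps the more abundant NUP62 on the opposite strand, with the same uncertainty as for DDIT3.

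Among the effectors the largest difference was in DDIT4 (REDD1), an inhibitor of mTORC1 signalling. Its normalised counts were 10554, 29114 and 32809 in MYC WT, 3583, 4918 and 6566 in MYC MUT and 12046, 36042 and 40587 in SWP. The highest MYC MUT library was well below the lowest library of either other line. SWP library 1 lay within the MYC WT range and SWP libraries 2 and 3 above it. SWP against MYC WT gave a log2 fold change of 0.27 (adjusted p = 0.799 from limma). DDIT4 in MYC MUT stood at 20.8% of the MYC WT mean and 17% of the SWP mean. It was called lower against MYC WT (log2 fold change -2.15, SE 0.48, adjusted p = 0.00494) and against SWP (log2 fold change -2.42, SE 0.48, adjusted p = 0.00247), in every alternative fit. SESN2, a sestrin that senses leucine upstream of mTORC1, had normalised counts of 11210.0, 20925 and 25308 in MYC WT, 7488, 9295 and 10585 in MYC MUT and 11175, 16580.4 and 20302 in SWP. Its MYC MUT libraries were all below the rest, although the highest of them came close to library 1 of the other lines. SESN2 was called lower against MYC WT (log2 fold change -1.0, SE 0.28, adjusted p = 0.0156) and against SWP (log2 fold change -0.78, SE 0.28, adjusted p = 0.0462), but its adjusted p reached 0.0733 and 0.167 over the alternative fits. The first call was lost without MYC MUT library 1, MYC WT library 2 or MYC WT library 3, and the second without any 1 of 6 libraries.

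The secreted glycoprotein STC2 and the peptide hormone ADM2 were also called lower in MYC MUT against MYC WT. STC2 counted 7611, 15709 and 16438 in MYC WT, 4377, 6562 and 7978 in MYC MUT and 7437, 12630.3 and 14949 in SWP. The highest MYC MUT library of STC2 exceeded library 1 of MYC WT and of SWP, so the groups overlapped (log2 fold change -1.03, SE 0.33, adjusted p = 0.0271). Against SWP its adjusted p was 0.0546, and 2.33e-06 with the replicate block. ADM2 counted 207, 914 and 791 in MYC WT, 69.3, 149 and 179 in MYC MUT and 42.4, 192 and 269.9 in SWP. The highest MYC MUT library of ADM2 was below the lowest of MYC WT (log2 fold change -2.10, SE 0.69, adjusted p = 0.0323), and the SWP libraries spanned those of MYC MUT, with a log2 fold change against MYC WT of -2.02 (adjusted p = 0.0955, and 6.37e-05 with the block). Both calls against MYC WT were lost without library 2 or 3 of MYC WT or library 1 or 2 of MYC MUT, with adjusted p of up to 0.112 for STC2 and 0.121 for ADM2. ADM2 shares 2381 bases with the more abundant SBF1 on the opposite strand.

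CHAC1 is among the most responsive ATF4 targets known, and its counts, given above, were lowest in library 1 of every line. MYC MUT libraries 2 and 3 were below the corresponding libraries of both other lines, whereas library 1 of MYC WT and of SWP lay below MYC MUT libraries 2 and 3, and that of SWP below all 3 MYC MUT libraries. The log2 fold change against MYC WT was -1.67 with a 95% interval of -3.53 to 0.18 (adjusted p = 0.141). Without library 1 of every line it was -2.14 (adjusted p = 2.28e-06), and against SWP -1.28 (adjusted p = 7.21e-05). With the replicate block CHAC1 was called lower in MYC MUT against SWP (adjusted p = 0.0143) and in SWP against MYC WT (adjusted p = 0.0228).

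Of 5 enzymes of amino acid and carbon metabolism 4 were called lower in MYC MUT against MYC WT. CTH, the enzyme that releases cysteine from cystathionine, had normalised counts of 1851, 7482 and 6130.3 in MYC WT, 818, 1313 and 1500.2 in MYC MUT and 1867, 4587 and 4873 in SWP. All 3 MYC MUT libraries lay below all 6 others. CTH in MYC MUT was at 23.5% of the MYC WT mean (log2 fold change -1.91, SE 0.49, adjusted p = 0.0106) and was called lower against SWP too (log2 fold change -1.56, SE 0.49, adjusted p = 0.0274), and its adjusted p reached 0.0512 against MYC WT, without MYC WT library 3, and 0.103 against SWP, where library 1 or 2 of MYC MUT or library 2 or 3 of SWP decided the call. CBS, which makes cystathionine, counted 1026, 1152 and 1212 in MYC WT, 632, 706 and 818 in MYC MUT and 659.9, 614 and 655 in SWP. Its libraries repeated each other closely, and both edited lines lay below MYC WT without overlap. CBS was called lower in MYC MUT (log2 fold change -0.66, SE 0.11, adjusted p = 0.000705) and in SWP (log2 fold change -0.81, SE 0.11, adjusted p = 0.000741), in every alternative fit, and MYC MUT did not pass the threshold against SWP (0.15, 95% interval -0.08 to 0.39).

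PCK2, the mitochondrial PEP carboxykinase, counted 4508, 16406 and 12232 in MYC WT, 1994, 3370.4 and 4396 in MYC MUT and 2943, 8688 and 9347 in SWP. In MYC WT the lowest library was just above the highest of MYC MUT (log2 fold change -1.65, SE 0.51, adjusted p = 0.0258). Its adjusted p against SWP was 0.146, and 0.00024 with the replicate block. GPT2, the mitochondrial alanine transaminase, counted 7131, 12775 and 12353 in MYC WT, 5464, 6167 and 7111 in MYC MUT and 6361, 8984 and 10161 in SWP. The margin between the MYC MUT and MYC WT libraries was again small (log2 fold change -0.74, SE 0.22, adjusted p = 0.0206), and without library 2 or 3 of MYC WT or library 1 or 2 of MYC MUT both calls were lost, with adjusted p of up to 0.0882 for GPT2 and 0.103 for PCK2.

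ASNS, asparagine synthetase, is the textbook target of ATF4, and its log2 fold change in MYC MUT against MYC WT was -1.06 with a 95% interval of -1.99 to -0.12 (adjusted p = 0.0703). Its counts were 319.8, 986 and 762 in MYC WT, 213, 315 and 396 in MYC MUT and 282, 573 and 743 in SWP, and the lines overlapped only through library 1 of MYC WT and of SWP. With the replicate block it was called lower against SWP (log2 fold change -0.72, adjusted p = 0.00306). It was called lower without library 1 of every line, against MYC WT (log2 fold change -1.29, adjusted p = 8.43e-05) and against SWP (log2 fold change -0.88, adjusted p = 0.0011). These counts are uncertain, because the processed pseudogene ASNSP1 was listed at 83.3% of the ASNS level over the 9 libraries and the alignment was not splice-aware.

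All 5 amino acid transporters were lower in every MYC MUT library than in any MYC WT or SWP library. Over the 43 genes 14 had all MYC MUT libraries below all SWP libraries, against 23.0% of all genes tested, and 4 had them above, against 29.2%. SLC7A5 (LAT1), which takes up leucine and other large neutral amino acids, had normalised counts of 34744, 48588 and 43417 in MYC WT, 17132, 18136 and 23154 in MYC MUT and 33475, 32722 and 43511 in SWP. SLC7A5 was called lower against MYC WT (log2 fold change -1.12, SE 0.15, adjusted p = 0.000201) and against SWP (log2 fold change -0.91, SE 0.15, adjusted p = 0.000742). SLC7A1, the carrier of arginine and lysine, counted 19852, 29504 and 25961 in MYC WT, 11513, 12214 and 14798 in MYC MUT and 20329.9, 21895 and 25730.5 in SWP. Each SWP and MYC WT library was well above the highest of MYC MUT, and SLC7A1 was called lower against MYC WT (log2 fold change -0.96, SE 0.14, adjusted p = 0.000422) and against SWP (log2 fold change -0.82, SE 0.14, adjusted p = 0.0011). Both genes kept these calls in every alternative fit.

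SLC7A11 (xCT), the cystine importer that supplies glutathione synthesis, counted 3330.4, 10109 and 8521 in MYC WT, 1270.1, 2369 and 3277 in MYC MUT and 3343, 5925 and 7225 in SWP. Library 1 of MYC WT and of SWP lay only just above the highest MYC MUT library. SLC7A11 in MYC MUT was at 31.5% of the MYC WT mean (log2 fold change -1.62, SE 0.44, adjusted p = 0.0129) and 41.9% of the SWP mean (log2 fold change -1.29, SE 0.44, adjusted p = 0.0373), with adjusted p of up to 0.0584 and 0.149 over the alternative fits. The first call was lost without MYC MUT library 1 or library 2 or 3 of MYC WT, and the second without any 1 of 5 libraries. SLC3A2 (CD98), the heavy chain shared by SLC7A5 and SLC7A11, counted 18466, 24814 and 27465 in MYC WT, 15302, 16282 and 18127 in MYC MUT and 22233, 23594 and 27493 in SWP. Its decrease was called against SWP (log2 fold change -0.56, SE 0.13, adjusted p = 0.00722), a call lost without SWP library 3, and fell just short of the size threshold against MYC WT (log2 fold change -0.49, SE 0.13, adjusted p = 0.0139), which it passed without library 1 of every line (log2 fold change -0.60, adjusted p = 0.000384). SLC38A2 (SNAT2), a carrier of small neutral amino acids, counted 17524, 27958 and 25945 in MYC WT, 14087, 15288 and 16593 in MYC MUT and 16929.5, 20262 and 22295 in SWP. It was called against MYC WT only (log2 fold change -0.61, SE 0.16, adjusted p = 0.0106), a call lost without MYC WT library 2, and its adjusted p against SWP was 0.0904. XPOT, which exports transfer RNA from the nucleus, was lower in both edited lines, by less than the size threshold. With MYC WT as the reference, MYC MUT had a log2 fold change of -0.35 (SE 0.07, limma adjusted p = 0.0025). SWP had -0.26 (limma adjusted p = 0.0402), and every library of both edited lines lay below every MYC WT library. MYC MUT against SWP gave -0.09 (limma adjusted p = 0.326), although every MYC MUT library was below every SWP library.

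The synthetases, enzymes of 2 structural classes, did not all move in 1 direction. Of the class I enzymes CARS1, EPRS1 and YARS1 were called lower in MYC MUT against MYC WT, and of the class II enzymes GARS1 and SARS1. YARS1, the tyrosyl enzyme, counted 44991, 62686 and 58388 in MYC WT, 24049, 26667 and 30619 in MYC MUT and 42308, 50124 and 53641 in SWP. Every MYC MUT library was below every other library, and YARS1 was called lower against MYC WT (log2 fold change -1.02, SE 0.13, adjusted p = 0.00016) and against SWP (log2 fold change -0.84, SE 0.13, adjusted p = 0.000547). SARS1, the seryl enzyme, counted 25269, 39217 and 36237 in MYC WT, 15390.2, 16647 and 18234 in MYC MUT and 22399, 28911 and 30941 in SWP. It was likewise called lower against MYC WT (log2 fold change -0.98, SE 0.16, adjusted p = 0.000681) and against SWP (log2 fold change -0.70, SE 0.16, adjusted p = 0.00523), and both genes kept these calls in every alternative fit.

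EPRS1, the fused glutamyl and prolyl enzyme, counted 57444, 71607 and 63991 in MYC WT, 38016, 39242 and 42551 in MYC MUT and 50199.7, 53198 and 53119 in SWP. The lines were ordered without overlap, MYC WT above SWP above MYC MUT, and the call rested on MYC MUT against MYC WT (log2 fold change -0.68, SE 0.08, adjusted p = 0.000105). Its log2 fold change against SWP, -0.39, had an adjusted p of 0.00397 and missed the size threshold. GARS1, the glycyl enzyme, counted 24374, 40514 and 37013 in MYC WT, 18136, 20047 and 22598 in MYC MUT and 21429, 27342 and 28599.7 in SWP. MYC MUT lay below MYC WT without overlap (log2 fold change -0.72, SE 0.17, adjusted p = 0.00733) but overlapped SWP (-0.34, adjusted p = 0.144). CARS1, the cysteinyl enzyme, counted 5743, 10873 and 9705 in MYC WT, 4877, 5716 and 6214 in MYC MUT and 5009, 7095 and 7337 in SWP. Its MYC MUT libraries overlapped library 1 of MYC WT, its adjusted p against MYC WT was 0.0465 (log2 fold change -0.60, SE 0.22), and the call was lost in 11 alternative fits, 7 of which left out 1 library, with an adjusted p of up to 0.172.

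The other 14 synthetases were not called in the 3 comparisons with all libraries. Without library 1 of every line IARS1 (log2 fold change -0.52, adjusted p = 0.000355) and MARS1 (log2 fold change -0.55, adjusted p = 0.000126) were called lower in MYC MUT against MYC WT and RARS1 higher against SWP (log2 fold change 0.57, adjusted p = 0.00106). With all libraries the log2 fold changes of the 14 ran from -0.47 (MARS1) to 0.35 (KARS1) in MYC MUT against MYC WT and from -0.24 (IARS1) to 0.49 (RARS1) against SWP. Without the size threshold, 12 of all 19 synthetases passed an adjusted p of 0.05 as lower in MYC MUT than in MYC WT, where 19.8% of all genes tested did, and KARS1 passed as higher, where 18.6% did. In MYC MUT against SWP 4 then passed as lower, where 17.2% of all genes did, and 3 as higher, where 20.9% did, and in SWP against MYC WT EPRS1, VARS1 and NARS1 passed as lower, where 5.48% did. KARS1, the lysyl enzyme, counted 16004, 14579 and 15601 in MYC WT, 20477, 18891 and 19627 in MYC MUT and 14503, 13704 and 14061 in SWP. Every MYC MUT library exceeded every other library (log2 fold change 0.35, SE 0.06, adjusted p = 0.00112 against MYC WT and log2 fold change 0.48, SE 0.06, adjusted p = 0.000139 against SWP). KARS1 shares 871 bases with the less abundant TERF2IP on the opposite strand, and the use of strand in counting is not given. RARS1 and HARS1, the arginyl and histidyl enzymes, were higher in MYC MUT than in SWP by 0.49 (adjusted p = 0.019) and 0.36 (adjusted p = 0.0158) on the log2 scale, below the size threshold. FARSA and FARSB, the subunits of the phenylalanyl enzyme, had 95% intervals of -0.22 to 0.26 and -0.19 to 0.08 in MYC MUT against MYC WT.

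Levels between genes were compared per length, as RPKM, reads per kilobase of exon scaled to the reads on genes of a library. ATF4 was the most abundant of the 43 in each line, at 303 in MYC WT, 199.7 in MYC MUT and 299 in SWP, and NUPR1 the least, at 0.442, 0.109 and 0.0455. The median ATF4-linked gene was at 24.8 in MYC WT, 12.8 in MYC MUT and 19.5 in SWP. The median synthetase was at 52.5, 44.5 and 46.5, and the synthetases spanned 8.78 (HARS1) to 156 (EPRS1) in MYC WT. Pseudogene copies of some members, among them KARS1, RARS1 and XPOT, were listed as well, and reads shared with them were not measured.

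The 43 genes lie on 20 chromosomes, none on chromosome 8 with MYC. The median log2 fold change of the tested genes within 5 Mb of each member in MYC MUT against MYC WT ran from -0.36 around SLC7A1 to 0.29 around LARS1. With that median subtracted from each member's own value, and the p threshold kept, 16 ATF4-linked genes and 9 synthetases passed the size threshold as lower in MYC MUT than in MYC WT, against 7.37% of the 20742 tested genes with a position. Against SWP 7 and 2 passed as lower, beside 6.34% of those genes, and 1, RARS1, as higher, beside 10.2%. The 14 genes with a TGATGNAA site were at a median of -0.48 on the log2 scale in MYC MUT against MYC WT, with 3 called lower. The 23 with a window but no site in it had -0.61 with 12 called lower, where 10.1% of all genes tested were. Sequence outside the windows was not searched, so a gene without a site here may carry one elsewhere.

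Neighbouring pathways were read from other gene lists. Over all genes tested, 10.1% were called lower in MYC MUT against MYC WT and 11.3% higher. Of 9 enzymes of serine, glycine, one-carbon and proline synthesis, 8 were called lower in MYC MUT against MYC WT, led by MTHFD1L (log2 fold change -1.45, SE 0.10, adjusted p = 2.34e-06) and ALDH1L2 (log2 fold change -1.34, SE 0.31, adjusted p = 0.00616), and ALDH1L2 was called lower in SWP as well (-1.29). Of 14 other amino acid transporters 5 were called lower, led by the glycine carrier SLC6A9 (log2 fold change -2.39, SE 0.46, adjusted p = 0.00189) and the neutral amino acid carrier SLC43A1 (log2 fold change -2.21, SE 0.25, adjusted p = 6.71e-05), and SLC43A2 was called higher (0.69). Among 16 genes for the eIF2 kinases, eIF2 and eIF2B subunits and phosphatase subunits, 3 were called lower, with EIF2S3 (-0.63) and EIF2B3 (-0.62) the most, while the GCN2 gene EIF2AK4 was at -0.10 (adjusted p = 0.332). Of 18 chaperones and factors of the other unfolded-protein branches 3 were called lower, led by ERN1 (-0.77) and XBP1 (-0.61). The chaperone HSPA5 was at 0.37 (adjusted p = 0.0815). Counts of 3 in lists of 16 and 18 genes are little above what the share over all genes gives.

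Related enzymes were read in the same way, beside the same shares over all genes. Of 17 mitochondrial synthetases only WARS2 was called lower in MYC MUT against MYC WT (log2 fold change -0.57, SE 0.07, adjusted p = 0.000154), and their median log2 fold change was -0.04. Of 5 other cytosolic synthetase and multisynthetase-complex genes limma, edgeR and DESeq2 called 0, with 2 lower at an unadjusted p below 0.05 in limma, of which EEF1E1 alone passed the adjusted p threshold (-0.41, adjusted p = 0.0187).

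MYC, the edited locus, counted 20020.3, 28396 and 21580.1 in MYC WT, 10693, 11176 and 12399.8 in MYC MUT and 14480.1, 24743 and 25245 in SWP, all 3 MYC MUT libraries being below the other 6 (log2 fold change -1.02, SE 0.19, adjusted p = 0.00182 against MYC WT). All 5 HEK293 marker genes were detected, VIM being the highest, with adjusted p from 0.282 to 0.816 over the 3 comparisons. The other 4 were each called in at least 1 comparison. Against MYC WT the neurofilament gene NEFL was called higher in MYC MUT (1.07 on the log2 scale) and lower in SWP (-0.54), NEFM lower in MYC MUT (-0.58), PAX2 higher in MYC MUT (0.69) and INA higher in SWP (1.44), and the part of these differences in the results was not tested. Of 6 markers of differentiated nephron UMOD was at 0 in every library and the highest value was 6.8. Of 6 markers of other cell types 5 stayed at or below 8.07, while the collagen gene COL1A1 had means of 1111 ± 92.2 in MYC WT, 1907 ± 56.6 in MYC MUT and 913 ± 196 in SWP (SD, n = 3), and its part was not tested either. Fewer cells of a kind and less RNA per cell cannot be told apart in such bulk libraries.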

How the data were processed

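Poly(A)-selected RNA from 9 HEK293T cultures (MYC WT, MYC MUT and SWP, 3 libraries each) had been sequenced by the authors from directional libraries, aligned to hg38 with bwa mem, which is not splice-aware, deduplicated with Picard and annotated with GENCODE release 42. The submitters' processing notes list BWA 0.7.17-r2188 and cutadapt 1.18 for all samples of the series with no role given, and trimming of the RNA reads is not given in the sources used here. The deposited values are a signal, counts divided by DESeq2 size factors. All were whole reads (tolerance 0.001) once multiplied back, 65024354 to 98497026 per library; the counting tool and its use of strand are not given in the sources used here. The 43 members and all lists were chosen with earlier results of these data known. Gene names, positions and exon lengths came from GENCODE release 44 (57754 of 58336 identifiers matched).

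Groups came from the sample labels. log2(normalised count + 1) of the 20884 genes with a mean of at least 10 was fitted in 1 limma model (3.58.1, R 4.3.3, eBayes with trend) over the 9 libraries, with Benjamini-Hochberg adjustment over all genes. Fold changes are on this scale and are understated for low genes. Calls required a log2 fold change past 0.5 in size with adjusted p below 0.05. Members called in at least 1 comparison, ATF4 and DDIT3 are given by library, and of each related list the 2 called genes with the largest change in MYC MUT against MYC WT; CHAC1, ASNS, ATF5, KARS1 and other uncalled genes named with values were chosen after their values were seen. Tested on simulated counts for MYC MUT against MYC WT, limma recovered 188 of 200 genes changed by 1 on the log2 scale, with 13 false calls among 20884 genes. The changed genes were drawn from those with a mean of at least 50, and no shift shared by same-numbered libraries was simulated. In the real libraries the median residual SD was 0.52 for the ATF4-linked genes and 0.15 over all genes tested. The simulated recovery therefore does not describe these members. The alternatives were other pseudocounts, filters, scalings, fits with edgeR 4.0.16 and DESeq2 1.42.0 on the recovered reads, a replicate block, single libraries left out and library 1 of every line left out. Same-numbered libraries correlated in their deviations at 0.102 to 0.555 for SWP and MYC WT and 0.232 to 0.333 for MYC MUT and SWP. These were over the 0.1 asked of every pair, but MYC MUT and MYC WT gave 0.049 to 0.328. Differently numbered libraries reached 0.263 for SWP and MYC WT, 0.024 for MYC MUT and SWP and 0.154 for MYC MUT and MYC WT. The pairing comes from the numbers in the labels and this check. The block was fitted over all 9 libraries, so each block p-value also rests on the pairing of MYC MUT and MYC WT.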

Additional observations from a re-analysis of the deposited data

How the results depend on the processing

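Across the 21 alternative fits 10 of the 19 members called in MYC MUT against MYC WT kept their call in each one (ATF4, NUPR1, DDIT4, CBS, SLC7A5, SLC7A1, EPRS1, YARS1, GARS1 and SARS1), as did 5 of 10 in MYC MUT against SWP (DDIT4, SLC7A5, SLC7A1, YARS1 and SARS1) and both, NUPR1 and CBS, in SWP against MYC WT. 0 called members changed direction. NUPR1 had the least reads of the 43 genes, with a normalised count of 16 in its lowest library.

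Leaving out 1 library at a time changed the counts of genes called in either direction. In MYC MUT against MYC WT the ATF4-linked genes ranged from 7 (without MYC WT library 2 or 3) through 8 (without MYC MUT library 1) to 21 (without MYC WT library 1), beside 14. The 21 included ATF5 as higher. The synthetases ranged from 4 to 8 (without MYC WT library 1), beside 5. Over all 20884 genes tested 3943 (without MYC MUT library 2) to 4942 (without MYC WT library 1) were called, beside 4476. In SWP against MYC WT the ATF4-linked genes were 2 to 6 and the synthetases 0 to 2, the upper values both without MYC WT library 1. Over all genes tested 841 (without MYC WT library 3) to 1254 (without MYC WT library 1) were called there, beside 1072. In MYC MUT against SWP the ATF4-linked genes, 8 with all libraries, were 3 without SWP library 3 and 4 without SWP library 2 or MYC MUT library 1. They were 5 without MYC MUT library 2 and 13 without SWP library 1, and the synthetases were 2 to 4 (without SWP library 1). Without SWP library 1 ATF5, KARS1 and RARS1 were among them as higher. Over all genes tested 3811 (without MYC MUT library 1) to 4784 (without SWP library 1) were called, beside 4309. Without library 1 of every line, 9 ATF4-linked genes and 1 synthetase were called in SWP against MYC WT and 15 ATF4-linked genes in MYC MUT against SWP.

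The replicate block gave 7 ATF4-linked genes in SWP against MYC WT, all lower (background 4.18% lower). In MYC MUT against SWP it gave 12 ATF4-linked genes as lower (background 9.29%) and 2, ATF5 and NUPR1, as higher (background 13.6%). Same-numbered libraries of MYC MUT and MYC WT correlated in their deviations at 0.049 to 0.328, not all over the 0.1 asked. In this comparison the block gave 17 ATF4-linked genes as lower, 1, ATF5, as higher, and 5 synthetases as lower. Without it 14 and 5 were called, all lower. With the block 2365 of the 20884 genes tested were called lower (11.3%) and 2605 higher. The cause of the difference was not tested.

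Without the fold threshold the genes called were 8021 in MYC MUT against MYC WT, 2083 in SWP against MYC WT and 7944 in MYC MUT against SWP, and the synthetases 13, 3 and 7. Beyond a log2 fold change of 1 the genes were 1648, 505 and 1723, the ATF4-linked genes 9, 1 and 3, and the synthetases 1 in MYC MUT against MYC WT and 0 in MYC MUT against SWP. These changes follow from the threshold itself. Subtracting the neighbourhood median gave 9 synthetases as lower in MYC MUT against MYC WT (background 7.37%). Scaling to equal totals gave 4 synthetases in MYC MUT against SWP, with KARS1 and RARS1 as higher, beside 4290 of all genes tested. Limma without trend gave 5 ATF4-linked genes there, beside 4247 of all genes tested. The cause was not tested.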

Other observations

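Pseudogene copies named after a member were listed 22 times, for 12 of the 43 genes, and 9 of them reached 1% of their member's level over the 9 libraries. ASNSP1, a processed copy of the asparagine synthetase gene, had mean normalised counts of 652 ± 408 in MYC WT, 127 ± 49.9 in MYC MUT and 495 ± 299 in SWP (SD, n = 3), with a log2 fold change of -2.15 in MYC MUT against MYC WT (limma adjusted p = 0.0236). XPOTP1 stood at 21.5% of XPOT and had a log2 fold change of -0.33 (adjusted p = 0.00432) where XPOT had -0.35. KARS1P1 stood at 2.33% of KARS1 and had 0.52 (adjusted p = 0.00422) where KARS1 had 0.35. The copies of ATF4, ATF4P3 and ATF4P4, had -0.63 (adjusted p = 0.0126) and -0.72 (adjusted p = 0.0065) where ATF4 had -0.66. How many reads of each copy came from its member was not tested.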
